A study of Rattus norvegicus with 8 samples.

Results

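AP-1 is a family of dimeric transcription factors assembled from Fos, Jun and related bZIP proteins, and 7 of its genes were followed here in scalded rat skin: Fos, Fosb, Fosl1, Jun, Junb, Jund and Atf3. They were picked by identifier from the 26404 Ensembl rat genes of the count table, by a rule that pairs each identifier with its symbol. All 7 were in the table and all 7 passed the filter on low counts, which left 14240 genes. Poly(A) RNA was sequenced from skin of the dorsal hind paw of Sprague-Dawley rats weighing 125 to 200 g, all under urethane anaesthesia. The burn group consists of 4 libraries from paws held for 2 min in saline at 60 °C, which gives a deep partial-thickness burn, and the control group of 4 libraries from paws that were held in saline at room temperature over the same period, as the other paw of a scalded rat. The skin was excised at sites in which microdialysis probes had lain, so both groups share the anaesthetic, the immersion and the probe. No source used here states how long after the scald the skin was taken. Nothing says which burn and control paws belong to one rat, or that the libraries of a group come from separate rats, so the p-values measure the spread between these libraries. Cell type markers could not be matched to identifiers and were not analysed here. In whole skin a change in transcript level per cell and a change in the number of cells that express the gene cannot be told apart.

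Fos and Jun proteins pair through leucine zippers and bind the palindrome TGANTCA, or the related cyclic AMP response element TGACGTCA. Fos proteins require a Jun partner, whereas Jun proteins can also pair with one another. Fos, Fosb, Jun, Junb and Atf3 are early-response genes, whose transcripts appear soon after a stimulus without new protein synthesis and are quickly degraded. Jund is made more steadily in many tissues. In skin, AP-1 proteins act in keratinocyte proliferation and differentiation, in wound closure and in the control of proteases and cytokines.

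Among the 7 genes, Fos alone rose in burned skin past the threshold, an adjusted p of 0.05 by the edgeR quasi-likelihood test with Benjamini-Hochberg adjustment over all genes tested. None was called lower. The same rule called 21.9% of all genes tested, 11.9% as higher and 10.0% as lower, so 1 call among 7 is near the background. At an unadjusted p of 0.05 the test marked 5 of the 7, Fos, Fosb, Junb, Jund and Atf3, against 37.8% of genes tested. Estimated log2 fold changes, burn minus control, were positive for 6 of the 7 and negative for Fosl1, and 53.4% of the genes tested had a positive estimate. Their median was 0.77, against 0.06 over all genes tested. The burn and control values overlapped for every one of the 7, whereas the groups did not overlap for 31.0% of genes tested.

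**Figure D1:**
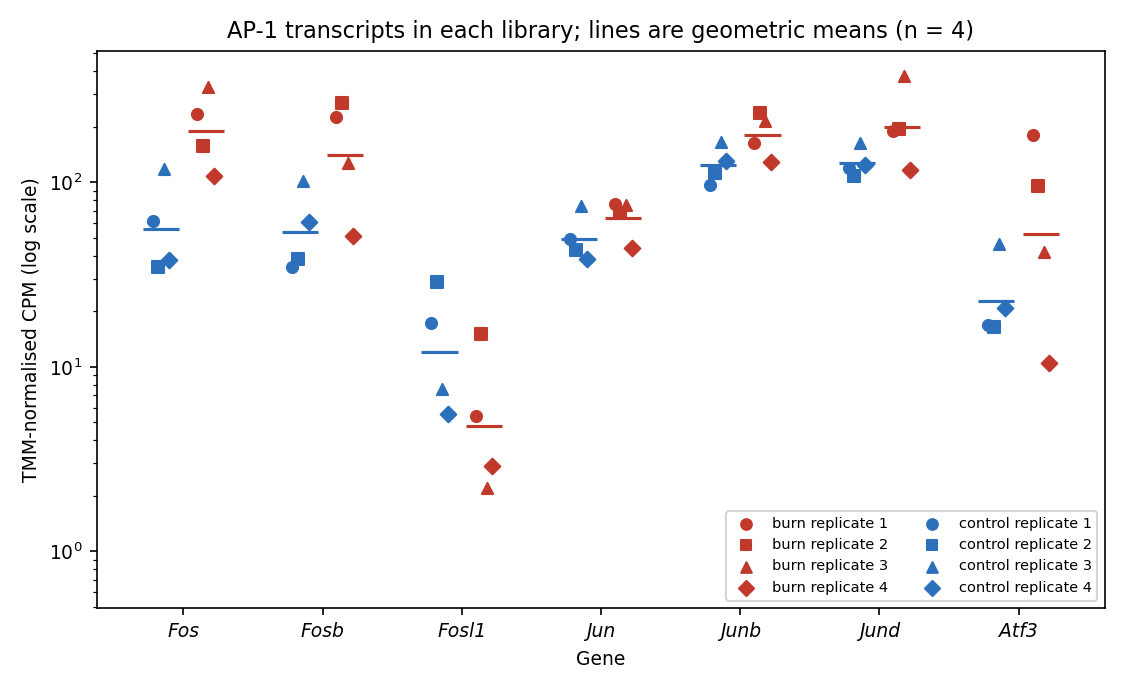
TMM-normalised CPM of each AP-1 gene on a log axis, 1 point per library (red, burn; blue, control; marker shape, replicate number), with lines at the geometric means of 4 libraries. Levels are not divided by gene length, so they compare libraries and not genes. For Fos, 3 burn libraries lie above all 4 control libraries, and burn replicate 4, at 108, lies below control replicate 3, at 119.

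Fos (ENSRNOG00000008015) encodes the founding Fos protein. Its level is given in CPM, read counts scaled by library size and by TMM, a trimmed mean over genes. From replicate 1 to replicate 4, Fos stood at 234, 158, 329 and 108 CPM in the burn libraries. In the control libraries, in the same order, it stood at 61.9, 34.6, 119 and 37.9 CPM. Burn replicates 1, 2 and 3 were above every control library, while burn replicate 4 fell inside the control range, below control replicate 3. Burn replicate 3, the highest, had the fewest genes with a count of any library, 15354. Its TMM factor was 1.20, against 0.81 to 0.89 in the other burn libraries. On the log2 CPM scale the means were 7.57 ± 0.70 in burn and 5.80 ± 0.81 in control (SD, n = 4 each). Fos rose 3.28-fold, with an unadjusted 95% interval of 1.56-fold to 6.89-fold. On the log2 scale the change was 1.71 (SE 0.47, edgeR adjusted p = 0.0337), with an unadjusted 95% interval of 0.64 to 2.78. An estimate at least as large was found for 5.32% of genes tested. The call depended on single libraries. It was lost when any of burn replicates 1 and 3 or control replicates 1, 2 and 4 was left out (edgeR adjusted p = 0.0545 to 0.0949), with log2 fold changes of 1.39 to 1.69. In 4 of those 5 fits fewer genes were called higher, 4.62% to 7.48%, whereas without burn replicate 3 more were, 2314 genes of 14462. Without control replicate 3 the estimate was 2.20 log2 units (edgeR adjusted p = 0.0254), in a fit that called 6.49% of genes higher.

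Fosb (ENSRNOG00000046667), whose protein and its truncated splice form pair with Jun proteins in the same way, had an estimate close to that of Fos but a wider spread among burned paws. The burn libraries measured 227, 269, 127 and 51.1 CPM and the control libraries 34.7, 38.2, 102 and 60.9 CPM, in replicate order. Again 3 burn libraries exceeded every control library, and burn replicate 4 lay below control replicates 3 and 4. The log2 fold change was 1.52 (SE 0.53, edgeR adjusted p = 0.0707), with an unadjusted 95% interval of 0.32 to 2.71. Without burn replicate 4 it was 1.81 (edgeR adjusted p = 0.0274), in a fit that called 10.5% of genes higher. The DESeq2 Wald test, which called 16.8% of genes higher, gave an adjusted p of 0.0186 for Fosb. The other 13 of the 15 alternative settings did not call Fosb. Without burn replicate 2, for example, its log2 fold change was 1.19 (edgeR adjusted p = 0.119).

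Fosl1 (ENSRNOG00000020552) encodes Fra-1, a Fos protein without the transactivation domain of Fos that is found in proliferating and migrating keratinocytes. It was the only one of the 7 with a negative estimate. The burn libraries, in replicate order, had 5.39, 15.0, 2.20 and 2.89 CPM from 62, 226, 42 and 48 reads. The controls had 17.2, 28.7, 7.61 and 5.51 CPM from 442, 828, 154 and 154 reads. Burn replicates 1, 3 and 4 lay below every control library, and burn replicate 2 lay between the upper and lower pairs of controls. The log2 fold change of -1.22 did not pass the threshold (SE 0.71, edgeR adjusted p = 0.240, unadjusted 95% interval -2.82 to 0.38). Without burn replicate 2 it was -2.10 (SE 0.63, edgeR adjusted p = 0.0414), the only one of 15 alternative settings in which a member was called lower. In that fit 12.4% of genes were called lower.

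Jun (ENSRNOG00000026293), Junb (ENSRNOG00000042838) and Jund (ENSRNOG00000019568) encode the partners with which Fos proteins dimerise, and their estimates were smaller than those of Fos, Fosb and Atf3, an order that was not itself tested. Jun, the strongest activator of the 3, had 75.8, 68.2, 74.9 and 43.8 CPM in burn and 49.2, 42.8, 74.2 and 38.5 CPM in control. Control replicate 3 stood level with the upper 3 burn libraries, and burn replicate 4 with the lower 3 controls. The log2 fold change of Jun was 0.36 (SE 0.26, edgeR adjusted p = 0.337), and its unadjusted 95% interval of -0.22 to 0.94 leaves room for a change of up to 1.92-fold upward.

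Junb, which often opposes Jun in cell-cycle control, measured 164, 238, 216 and 128 CPM in burn and 96.5, 113, 165 and 130 CPM in control. Burn replicates 2 and 3 were above every control. Its log2 fold change was 0.56 (SE 0.25, edgeR adjusted p = 0.128). For Jund the values were 189, 193, 376 and 117 CPM in burn and 120, 108, 163 and 123 CPM in control. Here 3 burn libraries were above every control and burn replicate 3 was far above the next. The log2 fold change was 0.77 (SE 0.33, edgeR adjusted p = 0.127). It was 0.37 without burn replicate 3 and 0.97 without burn replicate 4 (edgeR adjusted p = 0.238 and 0.0531). The unadjusted 95% intervals ran from 0.01 to 1.12 for Junb and from 0.01 to 1.52 for Jund.

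Promoter sequences from RefSeq on the GRCr8 build were matched by symbol for 4 of the 7 genes, Fosb, Fosl1, Junb and Jund, taking the 250 bases before the annotated start. The windows were searched on both strands for TGANTCA, for TGACGTCA, for the CArG box bound by serum response factor and for TATAA. The first 2 motifs cannot match the same bases. TGACGTCA was found once, in Jund, beginning 221 bases before the start, and 1.59% of the 33469 promoters in the table hold it in such a window. TATAA was found 42 bases before the start of Jund, 49 before that of Junb and, on the other strand, 179 before that of Fosb, against 24.0% of all promoters. TGANTCA, present in 6.34% of promoters, and the CArG box, present in 1.50%, were in none of the 4 windows. The windows of Jund (chr16:18769772-18770021, minus strand) and Junb (chr19:40080876-40081125, plus strand) are shown because both genes gave many reads in every library and Jund serves below as the denominator for the others. Capitals mark the motif matches.
Jund: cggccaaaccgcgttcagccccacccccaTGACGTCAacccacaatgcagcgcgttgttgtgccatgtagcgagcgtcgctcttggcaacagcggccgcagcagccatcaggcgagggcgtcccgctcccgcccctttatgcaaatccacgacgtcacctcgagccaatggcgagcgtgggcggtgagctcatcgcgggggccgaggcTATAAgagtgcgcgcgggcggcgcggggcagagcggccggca
Junb: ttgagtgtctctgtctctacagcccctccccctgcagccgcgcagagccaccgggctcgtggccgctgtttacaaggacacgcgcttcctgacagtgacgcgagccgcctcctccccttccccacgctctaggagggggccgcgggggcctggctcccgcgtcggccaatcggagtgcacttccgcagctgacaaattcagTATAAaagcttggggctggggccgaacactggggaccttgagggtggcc

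Atf3 (ENSRNOG00000003745), a stress-induced bZIP protein that represses as a homodimer and also pairs with Jun, had the widest range of the 7 genes among the burned paws. In replicate order it had 179, 95.3, 42.1 and 10.5 CPM in burn against 16.8, 16.5, 46.5 and 20.7 CPM in control. Burn replicates 1 and 2 were above every control, burn replicate 3 was just below control replicate 3, and burn replicate 4 was below every control. The highest burn value was 17.1 times the lowest, against 2.82 times in control. Its log2 fold change of 1.70 nearly equalled that of Fos, but with an SE of 0.74 it did not pass the threshold (edgeR adjusted p = 0.128, unadjusted 95% interval 0.03 to 3.38). It was 0.97 without burn replicate 1 (edgeR adjusted p = 0.352) and 2.07 without burn replicate 4 (edgeR adjusted p = 0.0378). By limma-voom the log2 fold change was 1.19 (adjusted p = 0.298), and by the DESeq2 Wald test the adjusted p was 0.0493.

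**Figure D2:**
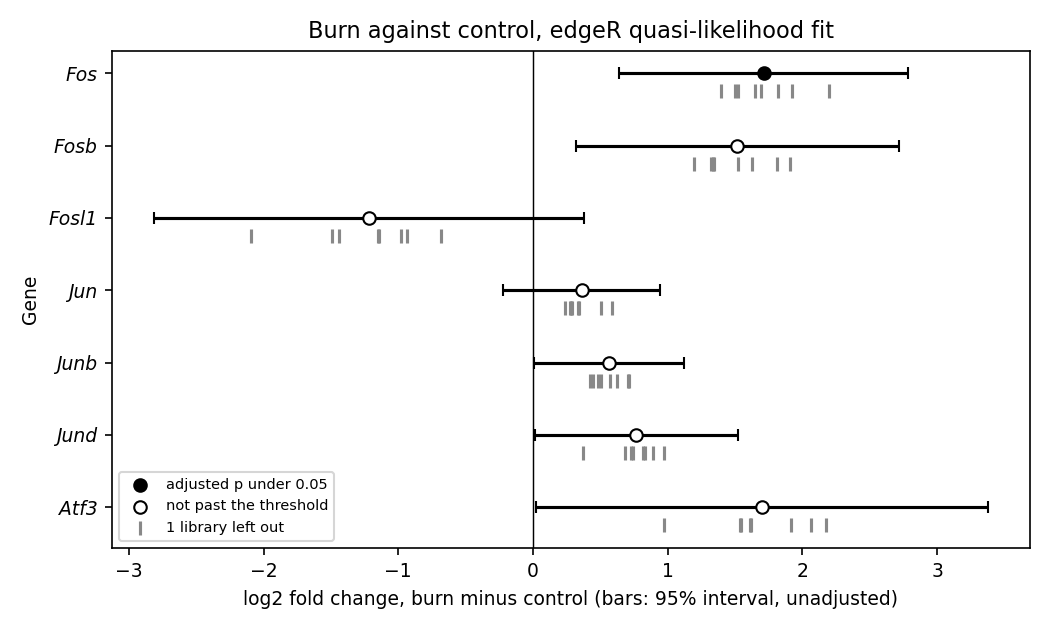
Log2 fold change of each AP-1 gene, burn minus control, from the edgeR fit with its unadjusted 95% interval; the filled point is past an adjusted p of 0.05, open points are not, and grey ticks are the estimates with 1 of the 8 libraries left out. Fos is the filled point at 1.71, Fosl1 is the only estimate below 0 at -1.22, and the grey ticks of Atf3 run from 0.97 to 2.17.

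The spread within a group differed between the members. Among control libraries the median SD of log2 CPM over all genes tested was 0.25, and 6 of the 7 members exceeded it. Fosl1 had a control SD of 1.08, reached by 1.75% of genes tested, and Fos one of 0.81, reached by 4.16%. For Fosb and Atf3 it was 0.71 and 0.70, reached by 6.21% and 6.47%. Jund, at 0.25, was at the level of the median gene. In burn the median gene had an SD of 0.52, and the members ran from 0.37 for Jun to 1.76 for Atf3, which 5.18% of genes reached. The burn SDs of Fosl1 and Fosb, 1.20 and 1.08, were reached by 15.0% and 18.4% of genes. Those of Fos and Jund, 0.70 and 0.69, were reached by 35.8% and 36.2%. Jun and Junb lay below the median gene.

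**Figure D3:**
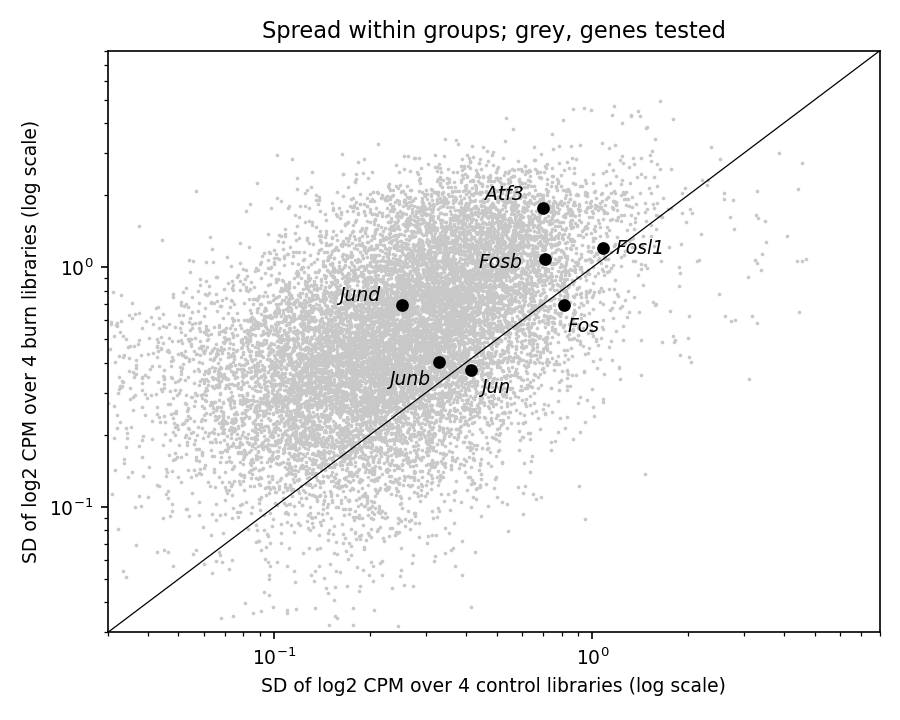
SD of log2 CPM over the 4 burn libraries against that over the 4 control libraries, both on log axes, with grey points for the 14240 genes tested (72 lie outside the axes), labelled points for the AP-1 genes and a line of equality. Fosl1, Fos, Fosb and Atf3 lie toward the right with control SDs of 0.70 to 1.08, and Atf3 lies highest of the 7 with a burn SD of 1.76.

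Control replicate 3 and burn replicate 4 lay at the ends of their groups for most members. Control replicate 3 had the highest control value for 6 of the 7 genes, all except Fosl1, and it was the highest control library for 24.2% of genes tested. Among the genes called higher in burn it was the highest control library for 34.3%, against 15.0% to 27.3% for the other 3. It exceeded the mean of the other 3 control libraries by 1.45 log2 units for Fos, 1.37 for Atf3 and 1.23 for Fosb. Departures of that size or more were found for 0.44%, 0.52% and 0.72% of genes tested in that library. For Jun, Junb and Jund the excess was 0.78, 0.55 and 0.48. Burn replicate 4 had the lowest burn value for the same 6 genes, and it was the lowest burn library for 15.7% of genes tested. Among the genes called higher in burn it was the highest burn library for 5.33%, against 24.3% to 36.2% for the other 3. Its difference from the mean of the other 3 burn libraries was -3.08 log2 units for Atf3, -1.95 for Fosb and -1.09 for Fos, differences that 0.33%, 0.88% and 3.62% of genes tested reached in that library. Both libraries were singled out after their values were seen, and what sets them apart was not tested.

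**Figure D4:**
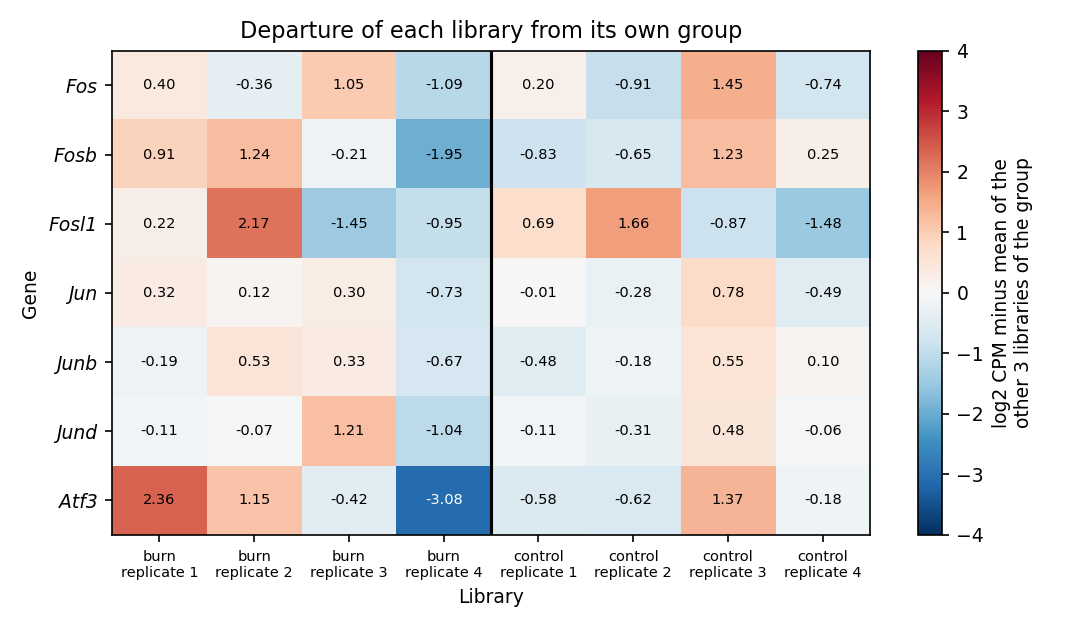
Log2 CPM of each AP-1 gene in each library minus the mean of the other 3 libraries of its group, red above and blue below that mean. In control replicate 3 every gene but Fosl1 is above, with 1.45 for Fos, and in burn replicate 4 all 7 genes are below, with -3.08 for Atf3.

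Ratios of 2 members within a library do not depend on how libraries are scaled, and they set the members against one another. In replicate order, Fos had 1.24, 0.816, 0.875 and 0.922 reads per Jund read in burn against 0.517, 0.319, 0.728 and 0.308 in control. Every burn library was above every control library in this ratio, although the levels of Fos alone overlapped. The mean log2 ratio was -0.07 ± 0.27 in burn and -1.19 ± 0.60 in control (SD, n = 4 each), a difference of 1.12. Of the 21 pairs of members, 3 had ratios that did not overlap between the groups, a smaller share than the 29.2% of all pairs of genes tested with a count in every library. These were Fos to Jund, Fos to Jun and Fosb to Fosl1, named after their values were seen and given with no test. With 1 library left out, the difference for Fos to Jund was 0.94 to 1.36. The log2 ratio of Fos to Jun ranged from 1.21 to 2.13 in burn and from -0.31 to 0.68 in control. That of Fosb to Fosl1 ranged from 4.14 to 5.84 in burn and from 0.41 to 3.74 in control.

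The other ratios overlapped. The group means of Fosl1 to Jund differed by -1.99 log2 units, by -1.32 without burn replicate 3 and by -2.56 without burn replicate 2. For Fosb to Jund the difference was 0.74, falling to 0.49 without burn replicate 1 and 0.41 without burn replicate 2. It rose to 1.10 without burn replicate 3 and 0.97 without burn replicate 4. For Atf3 to Jund it was 0.55, with -0.07 without burn replicate 1, 0.24 without burn replicate 2, 0.96 without burn replicate 3 and 1.06 without burn replicate 4. Jun to Jund and Junb to Jund differed by -0.28 and -0.10, and by -0.05 and 0.12 without burn replicate 3, with -0.25 for Junb to Jund without burn replicate 2. The direction of the Atf3 and Junb ratios therefore rested on 1 library each. Burn replicate 3 had the lowest ratio to Jund among burn libraries for Fosb, Fosl1, Jun and Junb. Its Jund level was the highest of the 8 libraries, and it also had the fewest genes with a count, 15354 against 17322 or more in the other 7. Of the reads of all 7 members, Fos took 22.1% ± 5.37 in burn and 12.8% ± 4.40 in control, and Fosl1 took 0.691% ± 0.535 and 3.58% ± 3.01 (SD, n = 4 each).

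**Figure D5:**
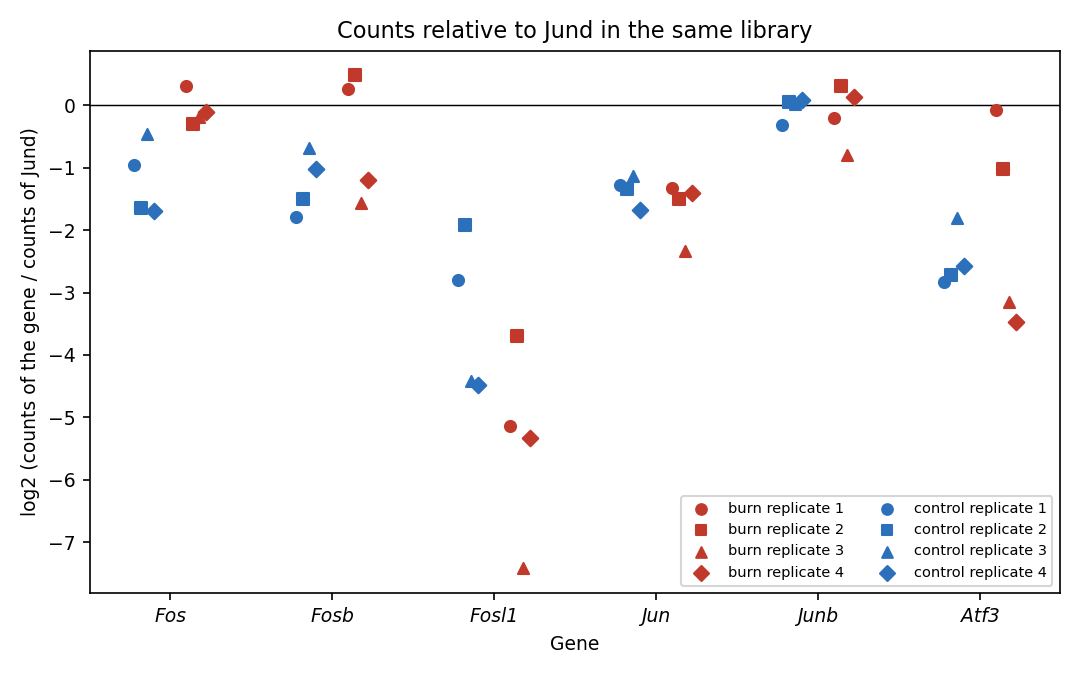
Log2 of the reads of each gene divided by the reads of Jund in the same library, 1 point per library (red, burn; blue, control; marker shape, replicate number). For Fos the lowest burn ratio, -0.29, is above the highest control ratio, -0.46, and for the other genes the groups overlap.

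Profiles over the 8 libraries were compared as log2 CPM, each gene centred on its control mean, by the mean absolute difference from the profile of another gene. The smallest distances between members were those of Jun and Jund, at 0.23 log2 units with 85 genes nearer to Jun, and of Junb and Jund, at 0.25 with 147 genes nearer to Junb. Atf3 and Fosb, at 0.40, were each other's nearest members. Of the 14239 other genes tested, 0 lay nearer to Atf3 than Fosb did, and 2 lay nearer to Fosb than Atf3 did. The median distance over all genes was 1.20 from Atf3 and 1.08 from Fosb. It was smaller from Jun, Junb and Jund, at 0.59, 0.60 and 0.64. Over the 4 control libraries alone the distance between Atf3 and Fosb was 0.16, and over the 4 burn libraries 0.64. These 2 values are unlike measures, because centring on the control mean removes a difference in level only from the control distance. Nearest to Fos among the members was Fosb at 0.63, with 532 genes nearer. The nearest genes of all to Fos were ENSRNOG00000048208 at 0.27 and ENSRNOG00000017849 at 0.28, whose names the table does not give. Both were called higher in burn (log2 fold change 1.99 and 1.79, edgeR adjusted p = 0.0271 and 0.0105). They were picked for closeness to Fos in these same libraries, so a change like that of Fos follows largely from the choice. For Fosl1 the nearest member was Jun at 1.34, and 63.4% of genes tested lay nearer. All profiles share the same 8 libraries and their scaling, so these distances are a description.

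Read numbers were high for every member except Fosl1. Libraries held 13693811 to 18738652 counts in burn and 17824830 to 26837925 in control, and the smallest value of any member was the 42 reads of Fosl1 in burn replicate 3. A limit of 3 reads corresponds to 0.189 CPM in that library. The 6 other members had at least 174 reads in every library.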

How the data were processed

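The deposited file is 1 table of unnormalised read counts for Ensembl rat genes in 8 libraries, and the authors' processing notes name TopHat2 2.0.9, HTSeq 0.5.4p3, edgeR, R 3.0.1, limma and the build Rnor_5.0. The sources used here do not say which tool did which step, which annotation release was used, or how strand and filters were set. Reads of overlapping or antisense genes therefore cannot be told apart. The table held 0 columns of other samples. Groups came from the treatment label, and replicate numbers follow accession order.

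Counts were tested with edgeR 4.0.16 in R 4.3.3 (TMM, default filter, robust quasi-likelihood fit, group alone, two-sided, adjusted over 14240 genes). The SE is the log2 fold change divided by the square root of F. Log2 CPM used a prior count of 2. The procedure was tested on simulated data, with an outcome that is not reported here. Alternatives used limma 3.58.1 and DESeq2 1.42.0. Counts of libraries within a group differed by a chi-square per degree of freedom of 28.3 or more, so none repeated the counts of another in its group. The comparison cannot show whether libraries come from separate rats.

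The members and lists were chosen with earlier results of these data known. All 7 members are named; partner, kinase, target and cell type lists were not analysed because no reference entry used here carries an Ensembl rat identifier. The rule for likeness named the nearest member for each and the nearest 2 genes to Fos.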

Additional observations from a re-analysis of the deposited data

Results flagged for a closer look

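Levels of the 7 genes and their ratios to Jund were screened within each group for 1 library far from the other 3, and 1 of 26 screens picked one, where chance picks about 1 in 20. It was the log2 ratio of Junb to Jund in control replicate 1, at -0.31, with the other control libraries between 0.02 and 0.08.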

How the results depend on the processing

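Across 15 alternative settings, 94 of 105 fold changes of the 7 genes had the same sign and the same call as in the main comparison, and none changed sign. Jun, Junb and Jund were called in none of them. Library size alone gave 894 higher genes, 0 members called and a Fos log2 fold change of 1.55 (edgeR adjusted p = 0.0702). That scaling moved the median of all genes from 0.06 to -0.15, and relative to the median Fos was 1.65 with TMM and 1.70 with library size. The DESeq2 Wald test gave 2379 higher genes (16.8%) and 2203 lower, with 3 members higher, adding Fosb at 1.50 and Atf3 at 1.69. Leaving out 1 library at a time gave 673 to 2314 higher and 546 to 1929 lower genes, 0 to 3 members higher and 0 to 1 lower. Estimates then ran from 1.39 to 2.20 for Fos, 1.19 to 1.91 for Fosb, 0.97 to 2.17 for Atf3 and -2.10 to -0.68 for Fosl1. For Jun, Junb and Jund they ran from 0.24 to 0.59, 0.42 to 0.71 and 0.37 to 0.97. Each of these refits had fewer samples, and the cause of the changes was not tested. Thinning every library to 13693811 counts left the calls of all 7 genes in place. No paired analysis was possible because the labels give no animal number and the replicate numbers follow accession order.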
